A study of Mus musculus with 7 samples.

Results

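The proteasome genes described here are the 47 genes, of 24341 in the table, whose symbol begins with Psma to Psmg and a digit. The immunoproteasome subunits Psmb8, Psmb9 and Psmb10 were set apart. RNA-seq was done on B-cell precursors (BCP), an early stage of B-cell development, which the labels give as sorted in both groups, from the spleens of mice that were all Emu-Ret hemizygotes on a BALB/c background. In this strain an oncogenic Ret fusion gene is driven by the immunoglobulin heavy chain enhancer, so every sample carries the transgene and none is a transgene-negative control. The preleukemic group held 4 samples from young, healthy mice, and the leukemic group held 3 samples from older, moribund mice with overt disease. Age and disease state therefore changed together and cannot be told apart. Values are FPKM, fragments scaled to transcript length and to library depth, and read fewer cells of a type and less RNA per cell alike. The depth implied by the steps between low FPKM values was 13.7 to 16.25 M fragments per sample.

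The proteasome is the protease that degrades most proteins tagged with ubiquitin. Its core particle is a barrel of stacked rings, with outer alpha rings that gate the channel and inner beta rings that hold the proteolytic sites, and the regulatory particle on its end has a base with an ATPase ring that unfolds substrates and a lid that removes ubiquitin. Dedicated chaperones build both particles, and the activators PA28 and PA200 can replace the regulatory particle. Subunits are built into fixed complexes, so a copy number gain of a chromosome that carries some subunits and not others can alter the ratio of their transcripts. Leukemias of this strain recurrently gain chromosomes 9, 12, 14, 15 and 17. Of the 47 genes, 11 lie on these chromosomes and 36 elsewhere. The karyotypes of the 7 samples themselves were not analysed here.

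The name rule also took in Psmc3ip, which encodes a meiotic recombination cofactor and no proteasome subunit, and Psme2b, a copy of the PA28 beta gene Psme2. Of the stretches of 50 bases in annotated Psme2b transcripts, 68.65% also occur in Psme2 transcripts, so fragments can be split between the pair and the value of each is uncertain. The listed span of 10 tested genes overlaps another protein-coding gene, among them Psma3, Psma4, Psma6, Psme1, Psme2b and Psme4. The widest is that of Psma6, which takes in Nfkbia, Ppp2r3c and Prorp. How strand was used in the counting is not given in the sources used here, so fragments from such neighbors cannot be told apart.

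Promoters are shown for 3 genes that stand for different parts of the complex. Psmb5 encodes the catalytic beta subunit with chymotrypsin-like activity. Psma4 encodes an alpha ring subunit, the only member on chromosome 9. Psme3 encodes PA28 gamma, the nuclear activator. Each sequence is the 250 bases before a RefSeq start on GRCm38.p6, read 5′ to 3′ on the gene's strand. Capitals mark 3 motifs in either orientation: TGACNNNGC, a core of the antioxidant response element that the proteasome regulators Nfe2l1 and Nfe2l2 bind, the CCAAT box, and the GC box GGGCGG. The motifs do not share a core and were searched separately.
Psmb5 (chr14:54617996-54618245, minus strand): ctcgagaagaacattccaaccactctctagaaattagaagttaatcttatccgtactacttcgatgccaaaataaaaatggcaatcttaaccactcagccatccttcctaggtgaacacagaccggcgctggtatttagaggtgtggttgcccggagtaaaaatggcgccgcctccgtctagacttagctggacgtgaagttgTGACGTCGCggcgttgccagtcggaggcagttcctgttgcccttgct
Psma4 (chr9:54950609-54950858, plus strand): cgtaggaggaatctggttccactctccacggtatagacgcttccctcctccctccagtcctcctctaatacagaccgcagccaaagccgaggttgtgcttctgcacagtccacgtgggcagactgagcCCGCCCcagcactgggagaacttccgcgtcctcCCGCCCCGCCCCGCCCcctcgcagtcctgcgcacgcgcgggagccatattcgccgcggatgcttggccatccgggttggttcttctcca
Psme3 (chr11:101315963-101316212, plus strand): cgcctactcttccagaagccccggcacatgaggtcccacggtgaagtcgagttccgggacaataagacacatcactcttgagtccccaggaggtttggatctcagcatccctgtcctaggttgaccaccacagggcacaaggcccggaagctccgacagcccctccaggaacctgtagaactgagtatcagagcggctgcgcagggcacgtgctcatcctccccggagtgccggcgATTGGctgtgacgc
The Psmb5 window holds TGACNNNGC, the Psma4 window holds only GC boxes and the Psme3 window holds a CCAAT box. RefSeq promoters matched 39 of the member genes, with 42 windows. TGACNNNGC occurred in 5 of these 42 windows (11.9%), those of Psmb5, Psmb6, Psmc6, Psmd9 and Psmd12, against 10.2% of all 32851 windows of the same length. CCAAT occurred in 14 (33.3%), against 33.9% of all windows. The GC box occurred in 22 (52.4%), against 32.7% of all. These are matches of letters and not sites. No promoter was matched for Psmb1.

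Transcripts of the complex were abundant in both groups. Summed over the 47 genes, they made up 0.861% to 0.978% of the FPKM total of a sample. The 31 genes of the constitutive 26S particle (7 alpha ring, 7 beta ring, 6 ATPase, 3 other base and 8 lid genes) had mean FPKM values between 42.1 for Psma3, an alpha ring subunit, and 265 for Psmb1, a non-catalytic beta ring subunit. All 31 were above the 78th percentile of the genes tested, whose median was 17.1 FPKM. Levels within a ring were not equal, and in the alpha ring the highest gene had 5.40 times the level of the lowest. The highest levels after Psmb1 were those of Psme1, which encodes PA28 alpha, at 243 FPKM, and Psma6, an alpha ring subunit, at 227 FPKM. The lowest levels that passed the filter were those of Psma8, at 2.75 FPKM, Psmd9, a chaperone of the base, at 13.7 FPKM, and Psmc3ip, at 14.8 FPKM. Psmb11, the beta subunit of the thymus cortex on chromosome 14 (54625310 to 54629556), did not pass. It was listed at 0.016, 0.016 and 0.01 FPKM in leukemic replicates 1 to 3 and at 0.01 FPKM, the lowest value in the table, in all 4 preleukemic samples.

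**Figure D1:**
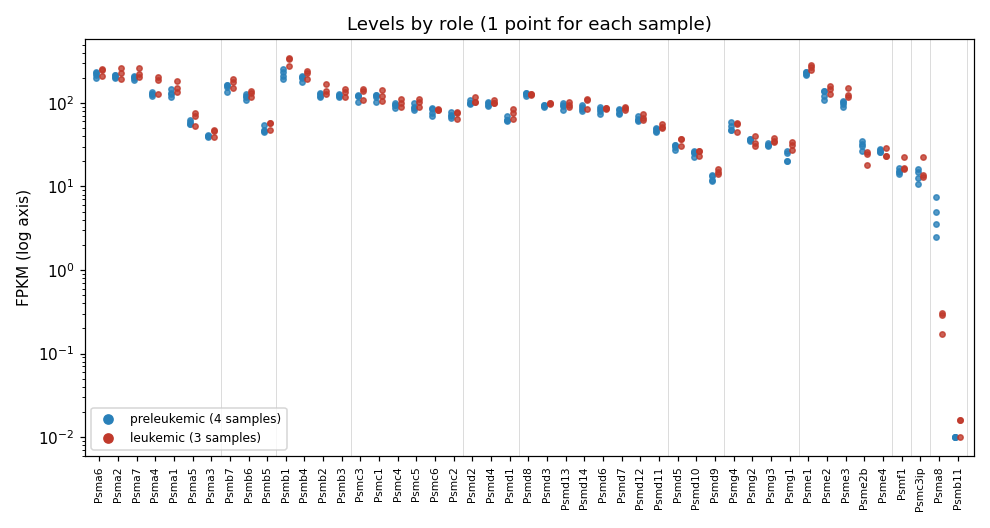
FPKM of the 47 genes (log axis), 1 point for each of the 4 preleukemic (blue) and 3 leukemic (red) samples. Vertical lines part the roles, from left to right alpha ring, catalytic and other beta ring, ATPase ring, other base, lid, chaperones of the regulatory particle and of the core particle, activators, inhibitor, Psmc3ip and the tissue-restricted core subunits. Psma8 is the 1 gene whose groups lie more than 8-fold apart, and Psmb11 is at or near 0.01 FPKM throughout.

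Between the groups, 46 members passed the filter of an FPKM sum of at least 10 over the 7 samples and were tested with limma on log2(FPKM + 1), with adjustment over all 10541 genes tested. Psmb1 and Psme3 were higher in leukemic samples and Psma8 was lower, each at an adjusted p under 0.05. The calls were thus 2 of 46 higher (4.35%) and 1 of 46 lower, against 8.47% and 6.26% of all genes tested. The groups did not overlap for 7 members that were higher in leukemic samples (15.2%, against 14.9% of all genes) and for 2 that were lower (4.35%, against 17.1%). The share of members called was below the share of all genes, and the share higher without overlap was close to it. Apart from Psma8, the log2 fold changes of members lay between -0.45 and 0.53.

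The direction was shared more widely than the calls. The log2 fold change (leukemic over preleukemic) was above 0 for 41 of 46 members (89.1%), against 47.9% of all genes tested. The median over members was 0.14 with quartiles of 0.07 and 0.20, and over all genes it was -0.02 with quartiles of -0.24 and 0.23. Within the 26S list, 30 of 31 genes were above 0, with a median of 0.13 and an SD across genes of 0.10, and the exception was the lid gene Psmd8 at -0.01. The sign depends on the scaling. After rescaling to TPM, which sets every sample to the same total, the median of all genes moved from -0.02 to -0.18, that of the members was -0.02, and 17 of 46 members were above 0, against 31.3% of all genes. Relative to the median of all genes, 42 of 46 members were higher under both scalings, by a median of 0.16 in each. TPM moves all genes of a sample by nearly the same log2 amount, so these values had to agree. They do not measure stability to scaling. After quantile normalization, which gives all samples the same distribution of values, 41 of 46 were higher, by a median of 0.11. The calls over all genes also turned with the scaling, from 893 higher and 660 lower (57.5% higher) as deposited to 686 higher and 2231 lower (23.5% higher) as TPM. Members are not replicates of each other, so no p is given for their shared direction.

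**Figure D2:**
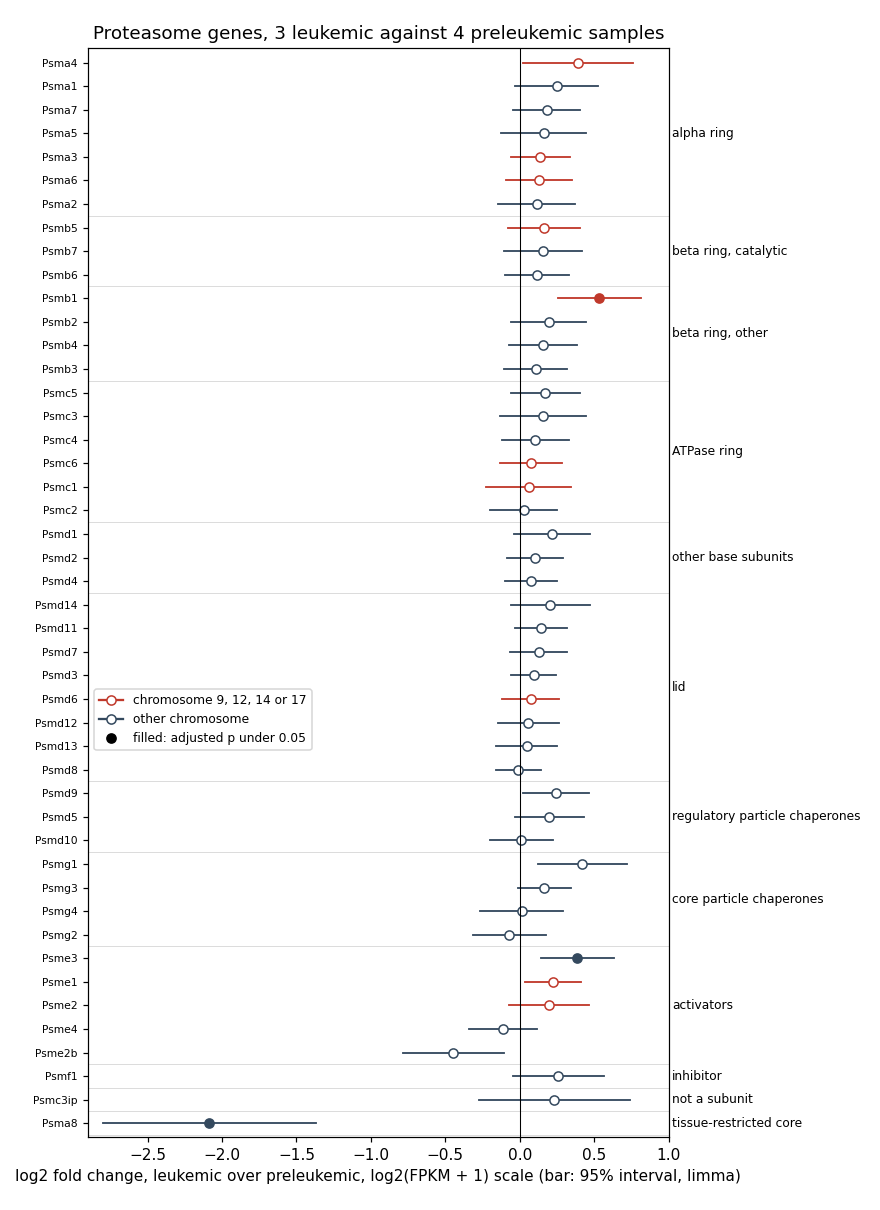
Log2 fold change of the 46 tested genes, leukemic over preleukemic, with 95% intervals from limma, grouped by role. Red marks genes on chromosomes 9, 12, 14 or 17, and filled points passed an adjusted p of 0.05. Most points sit between 0 and 0.3 with intervals that reach 0, and Psma8 lies far to the left at -2.09.

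The core particle held the gene with the largest rise. All 7 alpha ring genes were above 0, with log2 fold changes of 0.11 to 0.39 and a median of 0.16, and none was called. The 3 catalytic beta genes Psmb5, Psmb6 and Psmb7 lay between 0.11 and 0.16, and none was called. Psmb1 (chromosome 17, 15475721 to 15498276) had FPKM values of 347, 340 and 280 in leukemic replicates 1 to 3 and of 210, 194, 252 and 235 in preleukemic replicates 1 to 4. Every leukemic value was above every preleukemic value. The means were 322 ± 36.6 FPKM (SD, n = 3) and 223 ± 25.7 FPKM (SD, n = 4), a ratio of 1.45. The log2 fold change was 0.53 (SE 0.12, 95% interval 0.25 to 0.81, limma adjusted p = 0.0292). The call held without leukemic replicate 3 (adjusted p = 0.0327) and missed the threshold without any of the other samples, each left out singly, at an adjusted p of 0.0553 to 0.0794. The other 3 non-catalytic beta genes had log2 fold changes of 0.11 to 0.19.

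Psma8 encodes an alpha subunit that replaces Psma7 in the proteasome of male germ cells. It lies on chromosome 18 (14706151 to 14762299). Its FPKM values were 7.45, 4.96, 2.48 and 3.59 in preleukemic replicates 1 to 4, and 0.305, 0.173 and 0.289 in leukemic replicates 1 to 3. The lowest preleukemic sample was more than 8-fold above the highest leukemic sample. The ratio of the means was 18.1, and the log2 fold change, which adds 1 to low values and understates this ratio, was -2.09 (SE 0.31, limma adjusted p = 0.0123). At the implied depth, the leukemic values stand for about 2.13 to 6.90 fragments per sample and the preleukemic values for about 27.8 to 163, depending on the transcript length used. Psma8 passed the filter only through the preleukemic samples. No stretch of 50 bases of its annotated transcripts occurs in those of Psma7. The call held with any 1 of the 7 samples left out.

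As deposited, the regulatory particle groups had lower median log2 fold changes (0.08 to 0.10) than the groups of the core rings (0.16 to 0.18). Their ranges overlapped, and the difference was not tested. The 6 ATPase genes lay between 0.02 and 0.17 in log2 fold change (median 0.09), the other base genes Psmd1, Psmd2 and Psmd4 between 0.07 and 0.21, and the 8 lid genes between -0.01 and 0.20 (median 0.08). None of these 17 genes was called. The lid gene Psmd3 is an example of how small a separation could be. Its values were 97.6, 101 and 98.9 FPKM in leukemic and 95.5, 89.9, 94.9 and 91.5 FPKM in preleukemic samples, which do not overlap, and its log2 fold change was 0.09 (SE 0.06, limma adjusted p = 0.336).

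Among the activators and chaperones the members differed in direction. Psme3 (chromosome 11, 101316251 to 101323530) had FPKM values of 118, 149 and 125 in leukemic and of 104, 107, 96.8 and 90.6 in preleukemic samples. The groups did not overlap, and leukemic replicate 2 was the highest. The log2 fold change was 0.39 (SE 0.11, limma adjusted p = 0.0496), a call that held in 1 of the 7 fits without a sample, that without leukemic replicate 1. In the other 6 the adjusted p was 0.0676 to 0.136. Psme1 and Psme2, which form the interferon-inducible activator PA28 alpha-beta and lie side by side on chromosome 14, had log2 fold changes of 0.22 (SE 0.08, adjusted p = 0.0995) and 0.19 (SE 0.12, adjusted p = 0.268). Psme1 was at 245, 267 and 283 FPKM in leukemic and 215, 237, 237 and 219 FPKM in preleukemic samples, with no overlap, and here leukemic replicate 3 was the highest.

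Psme2b, the copy of Psme2 on chromosome 11, went the other way, at 18.2, 24.22 and 26 FPKM in leukemic and 26.6, 30.6, 32.2 and 35.5 FPKM in preleukemic samples. The groups did not overlap, and the log2 fold change was -0.45 (SE 0.15, limma adjusted p = 0.0798). As TPM it was -0.62 and passed (limma adjusted p = 0.0215), as did Psme4, which encodes the activator PA200, at -0.28 (adjusted p = 0.0490), against -0.11 (adjusted p = 0.440) as deposited. Psmg1, a chaperone of alpha ring assembly on chromosome 16, had 33.7, 31.4 and 27.5 FPKM in leukemic and 24.8, 26.4, 20.4 and 19.99 FPKM in preleukemic samples. These did not overlap either, and the log2 fold change of 0.42 (SE 0.13) did not pass (limma adjusted p = 0.0653). The other core particle chaperones, Psmg2, Psmg3 and Psmg4, lay between -0.07 and 0.16, the regulatory particle chaperones Psmd5, Psmd9 and Psmd10 between 0.01 and 0.24, and the inhibitor Psmf1 was at 0.26 (adjusted p = 0.206). Psmc3ip, the gene that is no subunit, had 22.8, 13.1 and 13.6 FPKM in leukemic and 16.1, 10.6, 14.96 and 12.8 FPKM in preleukemic samples, with leukemic replicate 1 alone above the preleukemic range, and its log2 fold change was 0.23 (SE 0.22, adjusted p = 0.474).

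**Figure D3:**
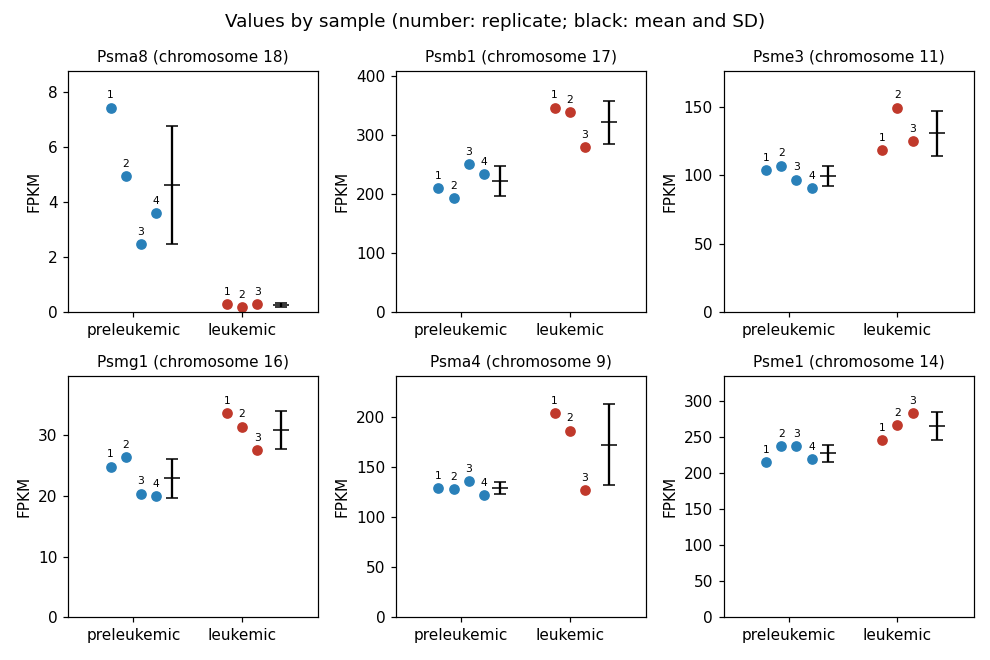
FPKM of 6 genes in each sample (axes from 0; points carry the replicate number; black marks show the mean and SD of the 4 preleukemic and 3 leukemic samples). Psma8 is near 0 in all 3 leukemic samples, Psmb1, Psme3, Psmg1 and Psme1 show no overlap between the groups, and Psma4 has leukemic replicate 3 among the preleukemic samples.

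The 3 leukemic samples were not alike. For each sample the deviation of every member from the preleukemic mean was taken on the log2 scale, less the median deviation of all genes in that sample, with a preleukemic sample set against the mean of the other three. The median over the 46 members was 0.19 and 0.21 in leukemic replicates 1 and 2 and 0.02 in leukemic replicate 3. In preleukemic replicates 1 to 4 it was 0.11, -0.08, 0.02 and -0.05. By this measure leukemic replicate 3 lay inside the preleukemic range and the other leukemic samples above it. The placement depends on the scaling. As a share of the FPKM total, members made up 0.978%, 0.9247% and 0.8611% in leukemic replicates 1 to 3. In preleukemic replicates 1 to 4 the share was 0.9439%, 0.9025%, 0.9276% and 0.8935%. By share, leukemic replicate 2 lay inside the preleukemic range and leukemic replicate 3 below it. In FPKM as deposited, 24 of the 31 genes of the 26S list in leukemic replicate 1 were above the highest preleukemic sample. In leukemic replicate 2 this held for 25 and in leukemic replicate 3 for 3. Leukemic replicate 3 was the lowest of the leukemic samples for 27 of the 31. Among preleukemic samples, replicate 2 was the lowest for 22 of the 31. The median log2 fold change over members was 0.18 without leukemic replicate 3, 0.09 without leukemic replicate 1 and 0.11 without leukemic replicate 2.

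Gene dosage was examined by the shift of each chromosome, the median deviation of its other genes with a mean of at least 5 FPKM, less that of all genes. For comparison, 3 copies in place of 2 in every cell, with transcript in proportion, would give 0.585 on the log2 scale. Chromosome 17 was shifted by 0.37, 0.37 and 0.40 in leukemic replicates 1 to 3. Chromosome 9 was shifted by 0.33 and 0.28 in leukemic replicates 1 and 2 and by 0.10 in leukemic replicate 3. The remaining chromosomes of the gained class divided differently, with chromosome 14 at -0.10, -0.11 and 0.15, chromosome 15, which carries no member, at -0.02, -0.01 and 0.20, and chromosome 12 at -0.05, -0.01 and -0.07. Preleukemic replicate 3 also had shifts, of 0.12 on chromosome 9, 0.17 on chromosome 14 and 0.13 on chromosome 17. In the other preleukemic samples these 5 chromosomes lay between -0.06 and 0.02. Preleukemic replicate 3 is part of the mean that all other samples were set against. This lowers their shifts on chromosomes 9, 14 and 17, also where these are compared with 0.585. Deviations of members were taken against the same mean. Chromosomes outside the class had mean leukemic shifts of -0.06 to -0.01, so small negative shifts are not read as losses.

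Psmb1 and Psma4 are the only members on chromosomes 17 and 9. The chromosome 17 shift differed little among leukemic samples, at 0.37 in replicates 1 and 2 and 0.40 in replicate 3. These samples therefore cannot show whether Psmb1 varied with its chromosome. Psmb1 deviated by 0.64, 0.64 and 0.36 in leukemic replicates 1 to 3. In preleukemic replicate 3, which had a chromosome 17 shift of 0.13, it deviated by 0.23, against -0.08, -0.23 and 0.09 in preleukemic replicates 1, 2 and 4. Psma4 (chromosome 9, 54950257 to 54958030) had FPKM values of 204, 186 and 127 in leukemic and 129, 128, 136 and 122 in preleukemic samples. It was thus high in the 2 leukemic samples with the larger chromosome 9 shift, at deviations of 0.66 and 0.55, and at -0.00 in leukemic replicate 3, whose shift was 0.10. Its log2 fold change was 0.39 (SE 0.16, limma adjusted p = 0.132), and without leukemic replicate 3 it was 0.59 and passed (adjusted p = 0.0243). In preleukemic replicate 3, which had a chromosome 9 shift of 0.12, Psma4 deviated by 0.09. Less the shift of its chromosome, Psmb1 was left with 0.28, 0.27 and -0.04 in leukemic replicates 1 to 3, and Psma4 with 0.33, 0.27 and -0.10. Leukemic replicate 3 was the lowest in both, as it was for the median over all members. The part of copy number in either gene was not tested.

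The 5 tested members on chromosome 14 are the catalytic gene Psmb5, the ATPase gene Psmc6, the lid gene Psmd6 and the activator genes Psme1 and Psme2. Their median deviation was 0.28 in leukemic replicate 3 (0.12 to 0.35) and 0.15 in preleukemic replicate 3 (0.06 to 0.20), the 2 samples in which the chromosome was shifted upward. All 5 were above 0 in both. In leukemic replicate 2, where the chromosome shift was -0.11, the median was 0.26 (0.07 to 0.27), and in leukemic replicate 1, with a shift of -0.10, it was 0.05. Both shifts were lowered by preleukemic replicate 3, which is part of the preleukemic mean. The 3 members on chromosome 12, Psma3, Psma6 and Psmc1, had medians of 0.23, 0.21 and -0.01 in leukemic replicates 1 to 3, with no shift of their chromosome above 0 in these samples. Psmb5 was at 47.6, 56.9 and 57.6 FPKM in leukemic and 47.2, 44.8, 54.0 and 46.6 FPKM in preleukemic samples, so that preleukemic replicate 3 was among the leukemic values. None of the chromosome 12 and 14 genes was called. Their log2 fold changes were 0.14 for Psma3, 0.13 for Psma6, 0.06 for Psmc1, 0.16 for Psmb5, 0.07 for Psmc6 and Psmd6, 0.22 for Psme1 and 0.19 for Psme2, at a limma adjusted p of 0.0995 for Psme1 and 0.268 to 0.750 for the others. All but Psme1 and Psme2 fell below 0 as TPM.

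**Figure D4:**
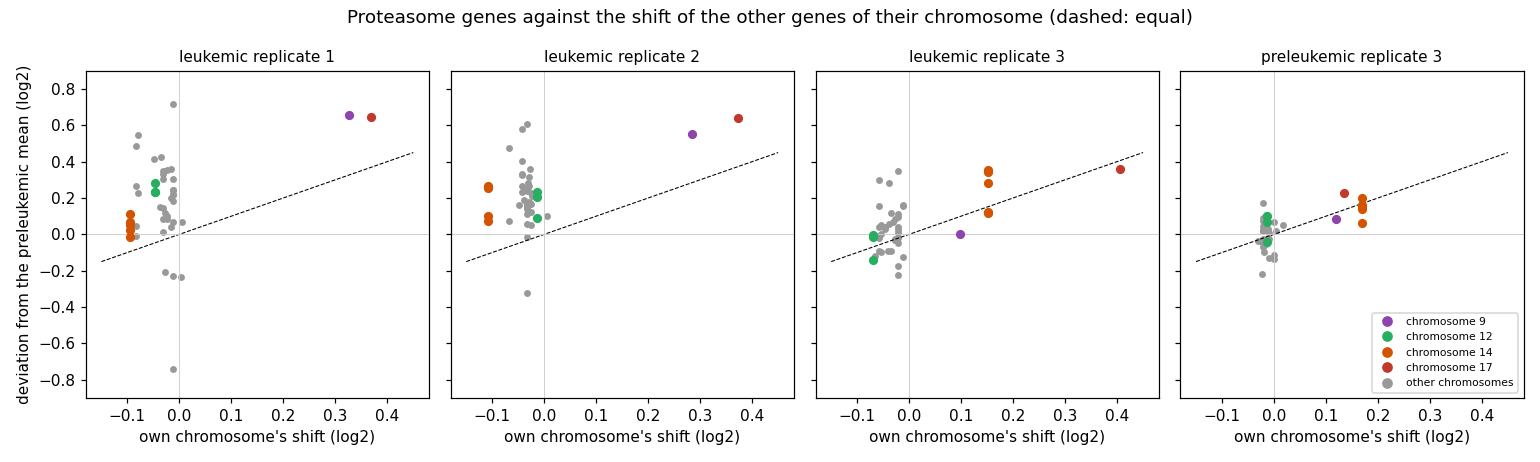
Deviation of each gene from the preleukemic mean (log2, less that of all genes) against the shift of the other genes of its chromosome (log2), in the 3 leukemic samples and preleukemic replicate 3; the dashed line marks equal values, and Psma8 is left out for its low level. Chromosome 17 (red) and chromosome 9 (purple) stand to the right in leukemic replicates 1 and 2. In leukemic replicate 3 chromosome 17 stands farthest to the right, at 0.40, with Psmb1 just under the dashed line; chromosome 14 (orange) is to the right of 0 there and in preleukemic replicate 3, and chromosome 12 (green) stays near a shift of 0.

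Taken as a class, members on the recurrently gained chromosomes were close to the others. The median deviation of the 10 tested members of the class less that of the 36 others was -0.02, 0.06 and 0.11 in leukemic replicates 1 to 3, a mean of 0.05. In preleukemic replicates 1 to 4 it was -0.09, -0.07, 0.10 and -0.03, so the leukemic values lay within or just above the preleukemic range. Once each member was set against the shift of its own chromosome, the difference was 0.03, 0.04 and -0.04 in the leukemic samples. The median log2 fold change was 0.15 for the class and 0.13 for the others. Of the 10, 3 lie on chromosome 12 and 5 on chromosome 14, and only 1 each on chromosomes 9 and 17. In leukemic replicates 1 and 2 chromosome 12 was shifted by -0.05 and -0.01 and chromosome 14 by -0.10 and -0.11. The class median could therefore hardly show dosage from chromosomes 9 and 17, and no conclusion on dosage is drawn from it. The mean difference was 0.02 to 0.08 under the other pseudocounts and scalings, over members with a mean of at least 20 FPKM, and with each sample left out in turn.

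Other genes of the ubiquitin-proteasome pathway had no shared direction. Of 34 genes in the table, 18 were above 0, with a median log2 fold change of 0.01. Of the 34, 4 were called higher and 2 lower, against 8.47% and 6.26% of all genes tested. These counts are near those shares and are not read as a result about the pathway. Rps27a, which encodes ubiquitin fused to a ribosomal protein, rose by 0.46 (limma adjusted p = 0.0120). Psmb8, an immunoproteasome catalytic subunit on chromosome 17, rose by 0.49 (adjusted p = 0.0213). Its neighbor Psmb9 had the same log2 fold change of 0.49 with a wider spread (SE 0.18, adjusted p = 0.104). Psmb10, the third immunoproteasome subunit, on chromosome 8, was at -0.10 (adjusted p = 0.583), and Pomp, the maturation factor of the core particle, at 0.11 (adjusted p = 0.381). Ubqln2, which encodes a shuttle of ubiquitinated substrates, fell by 0.80 on the log2 scale (adjusted p = 0.0211) and the ubiquitin ligase gene Ube3a fell by 0.31 (adjusted p = 0.0466).

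Markers of other cell types moved with the groups. The summed FPKM of erythroid markers was 5564 to 26020 in leukemic and 378 to 2730 in preleukemic samples, with 11 of 12 genes in the table higher without overlap and Hbb-bs at the lowest value of the table in all samples. Neutrophil markers summed to 1402 to 1730 and 147 to 851, with all 8 in the table higher without overlap, and macrophage markers to 154 to 323 and 35.4 to 85.9, with all 9 higher. Plasma cell markers summed to 129 to 205 and 66.9 to 73.2, and T and NK cell markers to 10.9 to 36.4 and 12.4 to 16.7. The B-cell precursor markers that define the sorted cells were present in all samples, at 3229 to 4626 in leukemic and 6153 to 7688 in preleukemic samples, with 8 of 11 lower without overlap. The erythroid sum was highest in leukemic replicate 2, where Psme3 was also highest, and preleukemic replicate 1 had the highest erythroid and neutrophil sums and the highest member median of its group. Other samples went the other way. Leukemic replicate 3 had the highest neutrophil sum, 1730, and the lowest member median of its group, 0.02. Leukemic replicate 1 had the lowest erythroid sum of its group, 5564, with a member median of 0.19. For its culture experiments the study mostly used leukemic spleen cells without enrichment, while the labels of these RNA samples give sorting for both groups. The part of such cells in the differences above was not tested.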

How the data were processed

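Splenic BCP samples, 3 leukemic and 4 preleukemic, were sequenced with a stranded mRNA kit. The authors deposited 1 FPKM value per gene and sample, with positions on mm10 and no value below 0.01. The submitters' processing notes name STAR 2.5.0b, bedtools 2.17.0, Cufflinks 2.2.1, Bowtie and DESeq2 without roles. FPKM already carry a scaling for length and depth and are not counts, so DESeq2 was not run here. Samples were grouped and numbered by their labels. The design text gives as many mice as samples in each group, but no label ties a sample to a mouse, so p-values measure the spread between these samples.

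The 10541 genes whose summed FPKM reached 10 entered a linear model on log2(FPKM + 1), fitted in limma 3.58.1 under R 4.3.3 (lmFit, eBayes with trend), without covariates, with Benjamini-Hochberg adjustment over all of them and a threshold of 0.05. Other values were computed in Python 3.11.15 with pandas 2.3.3 and numpy 2.4.6. Depth was estimated from the spacing of small FPKM values in 2243 genes that have 1 transcript, longer than 1500 bases; of these values, 77.2% to 83.8% per sample were whole fragments within 0.1; the TPM alternative rescaled each sample to a sum of 1000000. On simulated data for this comparison the fit over 10541 genes recovered 27 of 200 genes changed by 0.5 on the log2 scale, with 1 false call, and 138 of 200 changed by 1, with 8 false calls. In the data 1553 genes were called, more than the 200 changed there. The adjustment depends on that number, so these counts do not give the recovery in the data.

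The members and gene lists were chosen with earlier results of these data known. Named are members that were called, lie on chromosomes 9, 12, 14, 15 or 17, or are among the 3 highest or lowest by level or the 3 largest rises or falls, and for the pathway those called or of highest level (at most 5 called) with Psmb8, Psmb9, Psmb10 and Pomp, of which 2 are not reported here singly but stay in the counts; Psmd3 and Psmd8, Ube3a and Psmf1 were named after their values were seen. Alternatives were other pseudocounts (0.1 and 5), scalings and filters, no intensity trend, a replicate block and leaving out each sample.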

Additional observations from a re-analysis of the deposited data

Results flagged for a closer look

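Psmc3, which encodes an ATPase of the regulatory particle base, had an FPKM of 104.1 in preleukemic replicate 2, while the other 3 preleukemic samples lay between 121.3 and 123.5. This gap was 0.888 of the range of the group, above the limit for a sample that stands far from 3 others. The 46 tested members were examined in the preleukemic group, and chance alone flags about 1 in 20. Preleukemic replicate 2 was the lowest of its group for 22 of the 31 genes of the 26S list.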

How the results depend on the processing

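The number of members called higher was 2 as reported, 1 with a pseudocount of 5, as TPM, after quantile normalization, without the filter, with an FPKM sum of at least 70 and without the intensity trend, and 0 to 2 with 1 sample left out. The number called lower was 1, rose to 3 as TPM and was 0 with an FPKM sum of at least 70, which removes Psma8. With the replicate block both counts were 0, and no gene of the 10541 was called. The limma adjusted p with the block was 0.137 for Psma8, 0.163 for Psmb1 and 0.178 for Psme3. Same-numbered samples correlated at 0.03, 0.05 and -0.09, and differently numbered ones at -0.11 to 0.11. No pairing by number was seen, though so few pairs cannot exclude one. As TPM the median log2 fold change of members was -0.023, and 6 named members turned below 0: Psma3 (-0.024), Psma6 (-0.039), Psmb5 (-0.00063), Psmc1 (-0.10), Psmc6 (-0.092) and Psmd6 (-0.091). After quantile normalization Psmc1 (-0.011) and Psmd6 (-0.00049) did. With 1 sample left out, Psmc1 ranged from -0.050 to 0.17 and Psmc3ip from -0.012 to 0.37. The cause of these changes was not tested, other than the fewer genes or samples that the settings leave. Over all alternatives the median of members less that of all genes was 0.11 to 0.20. The alternatives of 26S list only and of the class without Psma8, and the median less that of all genes, were added after the data were seen. FPKM without counts limits low genes such as Psma8 and Psmb11 most.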
